A study of Mus musculus with 12 samples.

Results

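The genes described here copy the genome and make its building blocks: 47 mouse genes for origin recognition and licensing, the replicative helicase, the DNA polymerases, the sliding clamp and its loader, single-strand binding, Okazaki fragment joining and the supply of deoxynucleotides. They were chosen by name, and all 47 had a probe set among the 19938 genes that a single symbol identified on Affymetrix Mouse Gene 1.0 ST arrays, a microarray that measures RNA with short probes along each gene. RNA came from the forebrain of mice at postnatal day 0, with 3 arrays for each of 4 genotypes. GBS samples were tumors of hGFAP-cre::Ctnnb1(ex3)Fl/+SmoM2Fl/+ mice, GS samples were forebrain of hGFAP-cre::SmoM2Fl/+ mice, GB samples were forebrain of hGFAP-cre::Ctnnb1(ex3)Fl/+ mice, and Control samples were forebrain of Ctnnb1(ex3)Fl/+SmoM2Fl/+ mice, which carry both floxed alleles and no Cre. The human GFAP promoter drives Cre in radial glia, the progenitors of the forebrain, and in the cells that descend from them. The share of cells that carry recombined alleles was not measured. Recombined Ctnnb1(ex3) encodes a beta-catenin that is not degraded, and SmoM2 is an active form of Smoothened, the transducer of Sonic hedgehog signals. The labels call the replicates biological and do not say whether animals were pooled.

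Replication starts where the origin recognition complex sits on DNA. CDC6 and CDT1 then load the MCM2-7 ring there, geminin (Gmnn) keeps CDT1 from loading it again in the same cycle, and CDC45 and the GINS complex turn the ring into a working helicase. DNA polymerase alpha with primase starts each strand, polymerases delta and epsilon extend it, and PCNA, loaded by replication factor C, holds them on the template. Many of these genes are transcribed as cells enter S phase, and E2F factors are known regulators of them. In the newborn forebrain, cycling cells are found mainly in the germinal zones beside the ventricles.

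Values are deposited RMA values on the log2 scale, so a difference of 1 is a doubling of the signal. Genes were tested if at least 3 of the 12 arrays had them brighter than the 40th percentile, a level of 6.18 to 6.40 depending on the array. That left 38 members among 14195 genes. The other 9, Mcm8, Orc1, Gmnn, Gins1, Gins3, Pola2, Pole2, Rpa1 and Fen1, were measured but not tested. Mcm3, Pole and Rfc4 passed only because their GBS arrays were bright enough. Adjusted p-values below are Benjamini-Hochberg values over the 14195 genes from limma's moderated test, two-sided, and a gene passed where its adjusted p was under 0.05.

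Some arrays stood apart within their groups. GB replicate 2, GS replicate 3 and Control replicate 3 deviated from their group means in the same direction, with correlations of these deviations across genes between 0.74 and 0.83. The deviations of GBS replicate 1 correlated with theirs at 0.45 to 0.52. GB replicate 2 stood farthest apart, with values that correlated at 0.62 and 0.59 with the other GB arrays. Those other GB arrays correlated at 0.98 with each other. The median of 1194 olfactory and vomeronasal receptor genes, which are dim in brain, was 4.84 to 4.92 in GBS arrays, 4.88 to 5.23 in GS arrays, 5.02 to 5.35 in GB arrays and 5.12 to 5.23 in Control arrays. Markers of radial glia and of neurons were bright in every genotype, with list medians of 7.15 or more in each array. Pcna, Orc3, Orc4, Orc6 and Prim1 were each at least 1 lower in GB replicate 2 than the mean of the other GB arrays, and Orc4 differed most (-2.22). In all, 17 of the 47 members were lower in GB replicate 2 than in both other GB arrays, and 25 were higher. For some results that rest on these arrays, values without them are given as well.

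Promoters of the helicase ring are shown because its subunits act as one complex, and the 4 windows printed are those of the ring that held the letters searched. A RefSeq table for GRCm38.p6 gave windows of 300 bases, from 250 bases before to 50 bases after the start of the gene, for 39 of the 47 members (47 windows, since some genes have several starts). The letters searched were the E2F-type motifs TTTCCCGC, TTTGGCGC, TTTCGCGC and TTTGCCGC on both strands, and matches could overlap. In the lines below the matches are in capitals. The Mcm6 window is at chr1:128359656-128359955 and the Mcm3 window at chr1:20820263-20820562, both on the minus strand. The Mcm5 window is at chr8:75109259-75109558 on the plus strand. The Mcm7 window, 1 of 2 for that gene, is at chr5:138171834-138172133 on the minus strand.
Mcm6: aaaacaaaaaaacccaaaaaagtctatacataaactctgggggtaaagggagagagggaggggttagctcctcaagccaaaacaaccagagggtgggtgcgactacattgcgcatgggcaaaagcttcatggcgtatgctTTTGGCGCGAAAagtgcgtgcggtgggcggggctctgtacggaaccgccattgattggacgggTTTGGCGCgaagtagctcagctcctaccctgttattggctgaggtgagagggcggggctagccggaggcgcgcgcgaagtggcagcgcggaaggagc
Mcm3: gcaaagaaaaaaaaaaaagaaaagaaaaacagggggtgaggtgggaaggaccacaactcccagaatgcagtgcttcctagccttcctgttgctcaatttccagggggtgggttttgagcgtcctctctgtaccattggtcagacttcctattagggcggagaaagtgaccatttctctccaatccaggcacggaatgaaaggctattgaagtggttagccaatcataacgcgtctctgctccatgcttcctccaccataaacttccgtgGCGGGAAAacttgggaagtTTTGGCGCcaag
Mcm5: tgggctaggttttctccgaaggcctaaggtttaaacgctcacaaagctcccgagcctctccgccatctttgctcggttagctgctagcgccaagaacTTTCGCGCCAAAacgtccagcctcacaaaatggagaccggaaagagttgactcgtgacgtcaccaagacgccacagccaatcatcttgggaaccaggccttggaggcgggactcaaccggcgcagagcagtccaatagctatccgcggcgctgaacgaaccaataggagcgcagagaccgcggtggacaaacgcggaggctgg
Mcm7: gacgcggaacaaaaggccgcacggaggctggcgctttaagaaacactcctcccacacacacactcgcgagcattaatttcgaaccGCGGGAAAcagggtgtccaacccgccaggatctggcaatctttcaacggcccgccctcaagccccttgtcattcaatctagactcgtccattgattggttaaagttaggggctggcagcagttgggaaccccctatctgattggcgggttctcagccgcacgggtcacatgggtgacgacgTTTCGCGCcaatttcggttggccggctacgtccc
Mcm6 held 3 matches, 2 of which overlap, and Mcm3, Mcm5 and Mcm7 held 2 each, overlapping in Mcm5. The Mcm2 window and the other Mcm7 window held 0 matches, and Mcm4 was not among the genes matched. Across the members, 16 of 47 windows (34.0%) held at least 1 match, against 2.26% of all 32851 windows in the table. The median GC content was 61.3% in the member windows and 52.7% in all windows. Of the members higher in GBS than in Control, described next, 3 of 12 with a window held a match. Among tested members that did not pass, the figure was 9 of 20. CCAAT, the letters of the NF-Y motif, was in 26 of 47 member windows (55.3%) and 37.4% of all windows. These are counts of letters, and no binding was measured.

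GBS tumors differed from Control forebrain in the same direction wherever a replication gene passed the test. Of 38 tested members, 16 were higher in GBS and 0 were lower, while 11% of all tested genes were higher and 4.35% were lower. Of these, Pole and Rfc4 entered the test only through their GBS arrays. Without the 3 members that did so, the count was 14 of 35. The 16 include subunits of nearly every machine: Mcm6 and Mcm4 of the helicase, Orc2 and Orc5 of the origin complex, Gins4, the polymerase genes Pola1, Prim1, Pole and Pold3, the clamp Pcna and its loader genes Rfc1, Rfc2 and Rfc4, and Rrm1, Rrm2 and Tyms of nucleotide supply. The median difference of the tested members was 0.43, against -0.10 for all tested genes. All 3 GBS arrays lay above all 3 Control arrays for 28 of the 38 tested members, where 28.8% of tested genes did so. Mcm3, Pole and Rfc4, tested only through their GBS arrays, are among these 28. With no filter, it was 30 of 47 members and 4401 of 19938 genes, and the median difference was 0.39 over members and -0.14 over genes. In whole tissue, more cells that replicate and more RNA per cell cannot be told apart. The map of all members by array shows these differences.

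**Figure D1:**
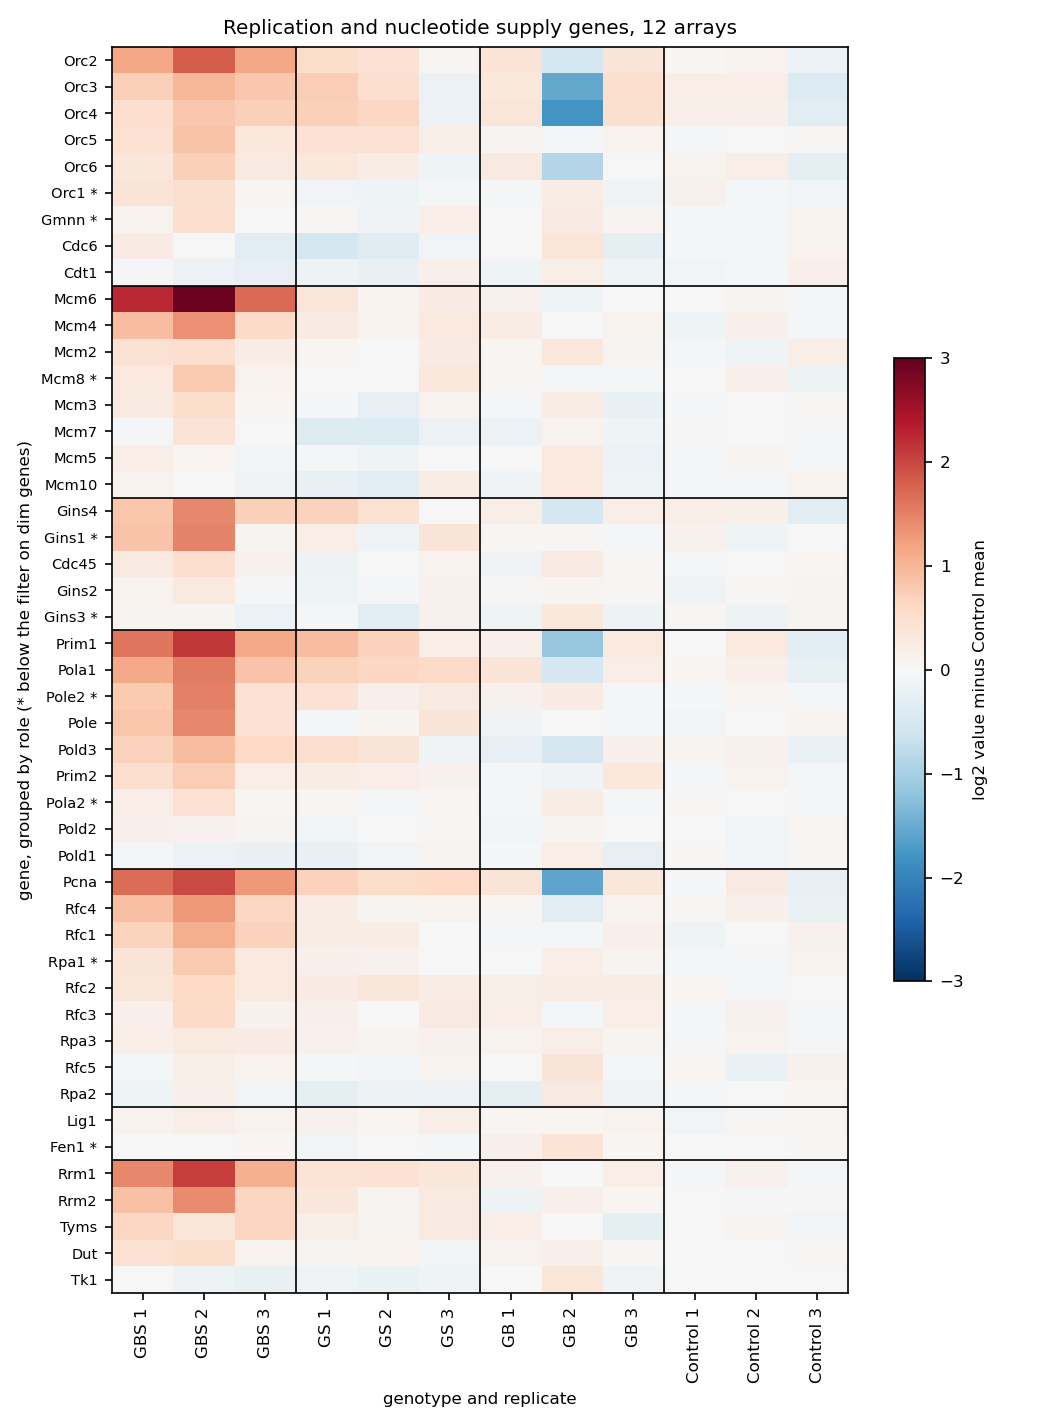
Each row is a gene, grouped by role, and each column an array, with GBS at the left and Control at the right. Colour gives the log2 value minus the gene's Control mean, and an asterisk marks genes below the filter. The 3 GBS columns are the reddest, GBS 2 most of all, and GB 2 holds the darkest blue cells, at Orc4, Orc3 and Pcna.

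Within the helicase ring, the differences from Control covered a wide range. Mcm6, a ring subunit, had 9.07, 9.76 and 8.51 in GBS tumors, 7.19, 6.93 and 7.06 in GS, 6.95, 6.68 and 6.82 in GB, and 6.80, 6.90 and 6.76 in Control. Every GBS array was far above every other array, and the other 3 genotypes lay close together. GBS minus Control was 2.29 ± 0.24 (SE), a 4.91-fold higher signal, with an adjusted p of 0.000255. Mcm4, a second subunit, had 7.24, 7.68 and 6.89 in GBS tumors, 6.56, 6.42 and 6.6 in GS, 6.53, 6.32 and 6.42 in GB, and 6.19, 6.47 and 6.29 in Control. The GBS arrays were again above all others, without overlap. Its difference from Control was 0.95 ± 0.168 (SE; adjusted p 0.00518).

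The other ring subunits did not pass. Their differences from Control were 0.39 for Mcm2 (adjusted p 0.053), 0.28 for Mcm3, 0.11 for Mcm7 and 0.06 for Mcm5. Mcm5 had 6.96, 6.83 and 6.69 in GBS tumors and 6.72, 6.85 and 6.74 in Control, so the groups overlapped, and the 95% interval of the difference ran from -0.21 to 0.33. Over the 6 ring subunits the differences spanned 0.06 to 2.29 with a median of 0.34. Whether they differed from each other was not tested. Mcm10, which helps to start the helicase, differed by 0.01. Mcm8, of a separate helicase for DNA repair, was below the filter, with means of 6.32 in GBS tumors and 5.93 in Control. The plots of the ring subunits by array show Mcm6 alone far above its Control level.

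**Figure D2:**
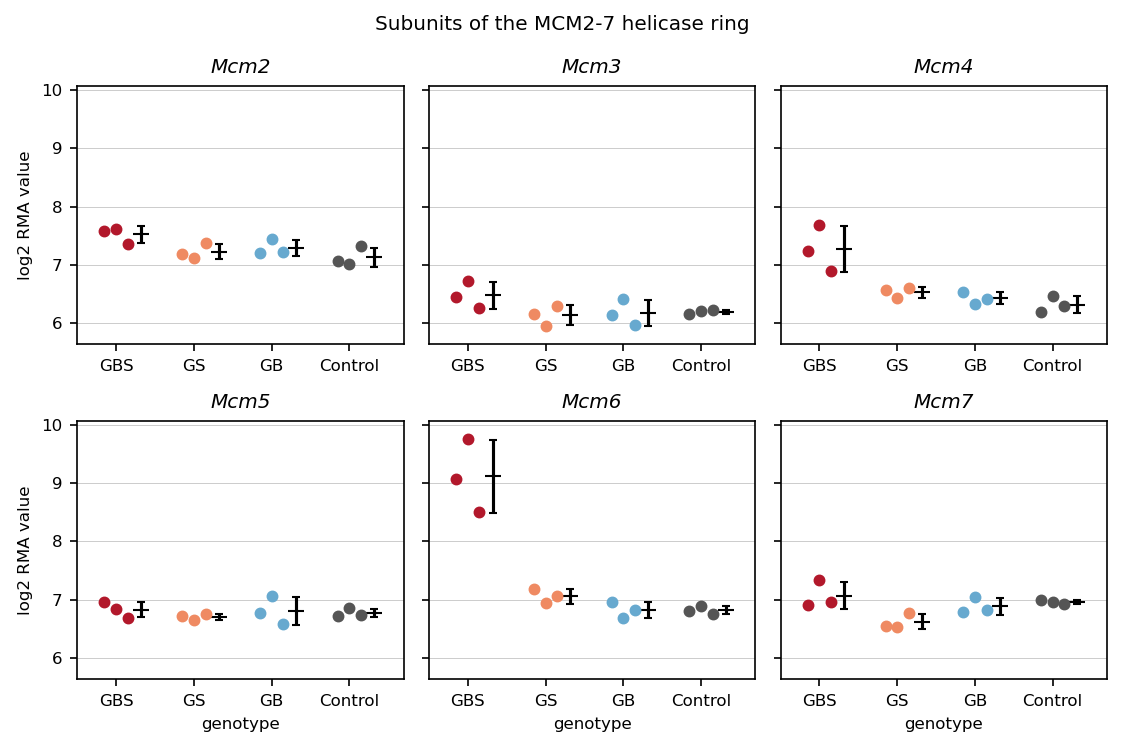
Each panel is a subunit of the MCM2-7 ring, with log2 RMA value on the vertical axis and genotype on the horizontal axis. Points are arrays, and the bar beside them is the mean with its SD (n = 3). Mcm6 lies between 8.51 and 9.76 in GBS tumors and at 7.19 or below elsewhere, whereas Mcm5 overlaps across the genotypes.

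Among the origin genes, 2 of 7 tested members passed. Orc2, a subunit of the origin recognition complex, had 7.40, 8.06 and 7.40 in GBS tumors, 6.78, 6.68 and 6.29 in GS, 6.64, 5.70 and 6.63 in GB, and 6.30, 6.35 and 6.07 in Control. The GBS arrays were the highest 3 of the 12, and the lowest array was GB replicate 2. GBS exceeded Control by 1.38 ± 0.262 (SE), or 2.60-fold, with an adjusted p of 0.00729. Orc5, of the same complex, was higher by 0.54 (adjusted p 0.0236). Orc3, Orc4 and Orc6 did not pass, with differences of 0.84, 0.68 and 0.44. GB replicate 2, at 7.0 for Orc3 and 4.94 for Orc4, widened their spread, and in both genes the GBS arrays did not overlap the Control arrays.

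The loading factors did not pass. Cdt1, which brings the ring to the origin, had 6.75, 6.64 and 6.56 in GBS tumors, 6.66, 6.59 and 6.97 in GS, 6.68, 7.01 and 6.69 in GB, and 6.73, 6.75 and 6.96 in Control. These groups overlapped, and the difference from Control was -0.16 ± 0.13 (SE; adjusted p 0.326). Cdc6, its partner, differed by -0.03 (adjusted p 0.908). Gmnn, the inhibitor of CDT1, was below the filter, with 5.38, 5.79 and 5.27 in GBS tumors, 5.31, 5.17 and 5.48 in GS, 5.30, 5.52 and 5.36 in GB, and 5.21, 5.24 and 5.38 in Control. Its groups overlapped as well.

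CDC45 and GINS complete the helicase. Gins4 was higher in GBS tumors than in Control by 1.0 (adjusted p 0.0313), while Cdc45 (0.30, adjusted p 0.11) and Gins2 (0.11, adjusted p 0.402) did not pass. Gins1 was below the filter with a difference of 0.82, and its GBS arrays ran from 5.76 to 7.18 and overlapped the Control arrays. Gins3, also below it, had means of 5.95 in both.

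Of the 7 polymerase and primase genes tested, 4 passed. Prim1, the catalytic subunit of primase, had 8.67, 9.18 and 8.20 in GBS tumors, 7.99, 7.75 and 7.26 in GS, 7.23, 5.92 and 7.35 in GB, and 7.09, 7.37 and 6.75 in Control. The GBS arrays did not overlap any other group, and GS replicates 1 and 2 lay above all GB and Control arrays. The difference from Control was 1.61 ± 0.374 (SE), or 3.06-fold, with an adjusted p of 0.018. Pola1, the catalytic subunit of polymerase alpha, had 7.96, 8.39 and 7.70 in GBS tumors, 7.52, 7.46 and 7.40 in GS, 7.22, 6.31 and 7.03 in GB, and 6.90, 6.99 and 6.62 in Control. All GBS arrays were above all GS arrays, which in turn were above all GB and Control arrays. GBS minus Control was 1.18 ± 0.23 (SE; adjusted p 0.00814).

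Pole, the catalytic subunit of the leading-strand polymerase, had 6.94, 7.54 and 6.54 in GBS tumors, 6.06, 6.19 and 6.50 in GS, 6.00, 6.11 and 6.07 in GB, and 6.03, 6.12 and 6.19 in Control. GBS replicate 3 was only just above GS replicate 3. The difference from Control was 0.89 ± 0.207 (SE; adjusted p 0.018). Pold3, an accessory subunit of polymerase delta, was higher by 0.74 (adjusted p 0.03). Pold1, the catalytic subunit of the same polymerase, had 7.07, 6.93 and 6.87 in GBS tumors, 6.87, 7.02 and 7.18 in GS, 7.07, 7.30 and 6.85 in GB, and 7.14, 7.03 and 7.14 in Control. No group stood apart, and the difference was -0.14 ± 0.123 (SE; adjusted p 0.356). Prim2 fell just outside the threshold (0.48, adjusted p 0.051), Pold2 differed by 0.13, and Pola2 and Pole2 were below the filter with differences of 0.24 and 0.92.

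The clamp gene Pcna had 10.67, 10.98 and 10.30 in GBS tumors, 9.69, 9.54 and 9.58 in GS, 9.38, 7.41 and 9.33 in GB, and 8.96, 9.26 and 8.75 in Control. GBS arrays were the highest, GS arrays came next, and GB replicate 2 was far below every other array. GBS exceeded Control by 1.66 ± 0.425 (SE), or 3.15-fold, with an adjusted p of 0.0276. A second probe set for Pcna gave 1.70. Processed copies of Pcna exist in the mouse genome, and an array cannot separate them from the gene where their sequences match.

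Of the 5 clamp loader subunits, 3 passed. Rfc1, the large subunit, had 7.40, 7.81 and 7.43 in GBS tumors, 6.95, 6.95 and 6.71 in GS, 6.70, 6.67 and 6.90 in GB, and 6.6, 6.75 and 6.85 in Control. GBS stood clear of the other genotypes, by 0.81 ± 0.131 (SE) from Control (adjusted p 0.00321). Rfc4, a small subunit, had 6.63, 7.03 and 6.34 in GBS tumors, 5.95, 5.80 and 5.82 in GS, 5.76, 5.41 and 5.83 in GB, and 5.75, 5.88 and 5.53 in Control. GBS was above the other genotypes without overlap, by 0.95 ± 0.173 (SE) over Control (adjusted p 0.00605), in a gene that was tested only because of its GBS arrays. Rfc2, another small subunit, had 6.46, 6.70 and 6.40 in GBS tumors, 6.36, 6.45 and 6.33 in GS, 6.28, 6.32 and 6.33 in GB, and 6.16, 6.07 and 6.08 in Control. Here the Control arrays were the lowest 3 of the 12, and GBS overlapped GS. The difference between GBS and Control was 0.42 ± 0.0917 (SE; adjusted p 0.014).

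Rfc3 and Rfc5 did not pass, with differences of 0.29 and 0.08. Rpa2, of the complex that coats single-stranded DNA, had 6.95, 7.22 and 6.98 in GBS tumors, 6.78, 6.91 and 6.91 in GS, 6.79, 7.35 and 6.97 in GB, and 7.01, 7.07 and 7.14 in Control. GBS and Control overlapped, with a difference of -0.02 ± 0.136 (SE; adjusted p 0.893) whose sign turned in some settings. Rpa3 differed by 0.25 (adjusted p 0.0582), and a second probe set for it gave 0.93, so its probe sets disagree in size. Rpa1 was below the filter, with a difference of 0.49. The joining genes showed little: Lig1, the ligase for Okazaki fragments, differed by 0.14 (adjusted p 0.196), and Fen1, the flap nuclease, by 0.02 below the filter.

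Of the 5 nucleotide supply genes, 3 passed. Rrm1, the large subunit of ribonucleotide reductase, had 7.79, 8.43 and 7.42 in GBS tumors, 6.76, 6.79 and 6.69 in GS, 6.48, 6.37 and 6.56 in GB, and 6.30, 6.48 and 6.28 in Control. GBS arrays were well above the rest, and GS arrays were above all GB and Control arrays. The difference from Control was 1.53 ± 0.198 (SE), or 2.88-fold, with an adjusted p of 0.000943. Rrm2, the small subunit of the same enzyme, had 7.38, 7.92 and 7.14 in GBS tumors, 6.83, 6.57 and 6.75 in GS, 6.33, 6.65 and 6.55 in GB, and 6.49, 6.47 and 6.52 in Control. GBS did not overlap any other genotype, and its difference from Control was 0.99 ± 0.172 (SE; adjusted p 0.00495).

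Tyms, thymidylate synthase, had 7.79, 7.52 and 7.79 in GBS tumors, 7.34, 7.24 and 7.41 in GS, 7.35, 7.17 and 6.87 in GB, and 7.17, 7.23 and 7.06 in Control. GBS replicate 2 was the highest GBS array in 15 of the 16 members that passed, close to the 88.4% of all genes higher there, and in Tyms it was the lowest. The difference from Control was 0.54 ± 0.128 (SE; adjusted p 0.0194). Tk1, thymidine kinase of the salvage pathway, had 7.42, 7.25 and 7.18 in GBS tumors, 7.31, 7.22 and 7.28 in GS, 7.39, 7.78 and 7.30 in GB, and 7.43, 7.40 and 7.40 in Control. GBS and Control overlapped, with a difference of -0.13 ± 0.121 (SE; adjusted p 0.407), and a second probe set gave -0.10. Dut, the dUTPase that keeps uracil out of DNA, differed by 0.36 (adjusted p 0.0523). The plots of these genes beside Pcna show each array.

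**Figure D3:**
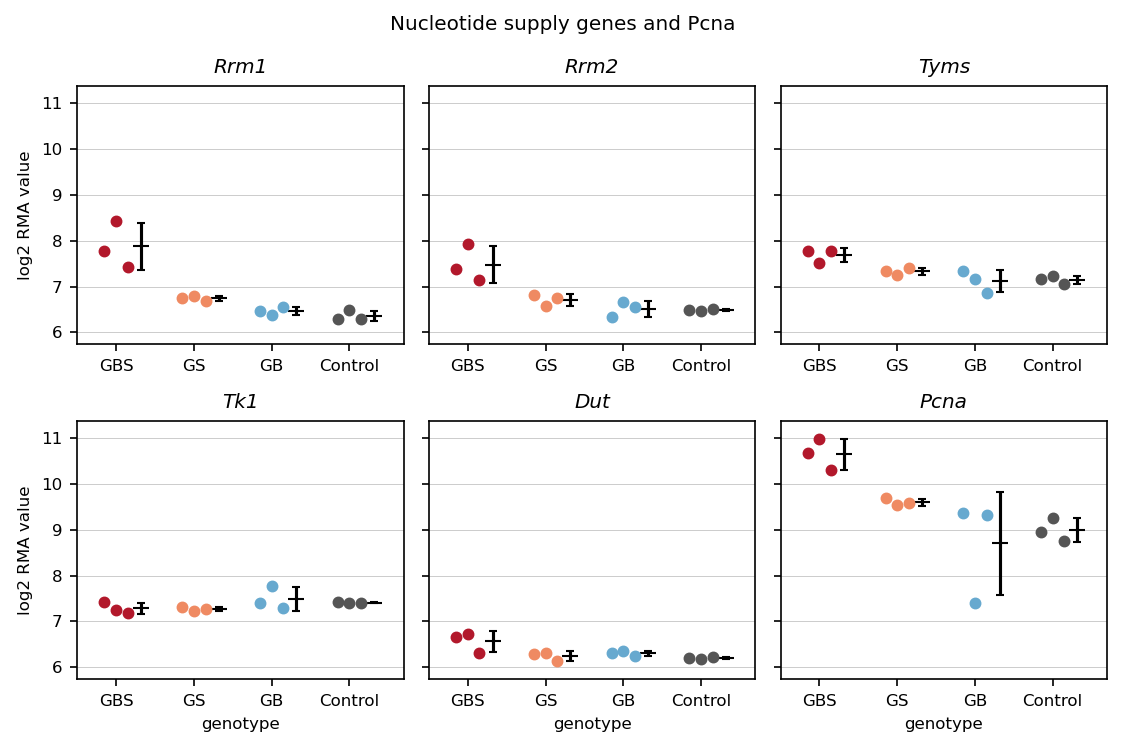
Each panel is a gene, with log2 RMA value on the vertical axis and genotype on the horizontal axis; points are arrays and the bar is the mean with its SD (n = 3). Rrm1, Rrm2 and Tyms are higher in GBS tumors than in Control, Tk1 overlaps, and Pcna shows the low GB replicate 2 at 7.41.

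Of the 16 calls between GBS and Control, those of Mcm4, Mcm6, Orc2, Rfc1, Rfc4, Rrm1 and Rrm2 held under every setting tried at the same threshold (23 for each, 22 for Rfc4, which reached the test through its GBS arrays). The other 9 were lost in at least 1. Leaving out any single Control array ended the calls of Orc5, Gins4, Pold3, Pole and Pcna, and leaving out GBS replicate 2 ended those of Orc5, Gins4, Prim1, Pold3, Rfc2 and Pcna. Prim1 was also lost without Control replicate 1 or 3, Rfc2 without Control replicate 2 or 3, Tyms without GBS replicate 1 or 3 or Control replicate 1 or 3, and Pold3 and Pcna without GBS replicate 1. With the receptor-gene level as a covariate, Pola1 (adjusted p 0.0694), Orc5, Gins4, Prim1, Pold3 and Pcna were lost, and with quantile normalization or the replicate block, Gins4, Pold3 and Pcna. The highest adjusted p over the settings was 0.187 for Orc5, 0.372 for Gins4, 0.169 for Prim1, 0.330 for Pold3, 0.0656 for Pole, 0.0603 for Rfc2, 0.310 for Pcna and 0.0843 for Tyms. The number of members higher in GBS than in Control was 10 without GBS replicate 2, 9 without Control replicate 1, 10 without Control replicate 2 and 8 without Control replicate 3. It was 23 without GB replicate 2 and 22 without all 3 arrays that deviate together. Shares of all tested genes under these settings are not given, so these counts cannot be read against a background.

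Either allele alone gave no member that passed. GS forebrain against Control had 0 higher and 0 lower of 38, with adjusted p-values of 0.645 or more in limma's test, against a background of 0.0211% higher and 0% lower among all tested genes. At an unadjusted p under 0.05 there were 4 members of 38 and 5.91% of all tested genes. The median difference was 0.14. GB forebrain against Control likewise had 0 and 0, with adjusted p-values of 0.999969, and a background of 0% in each direction. At an unadjusted p under 0.05 there was 1 member, Rfc2, and 1.1% of all tested genes. The median difference was 0.02. With GB replicate 2 or any other single array left out, 0 members passed between GB and Control in either direction. When arrays were weighted by their quality, 12 members were higher and 3 lower in GS than in Control, and without the 3 deviating arrays 2 were higher. The background shares above belong to the fit of all arrays without weights. Shares under these 2 settings are not given, so their counts cannot be read against a background.

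Against the single-allele genotypes, GBS tumors were again higher wherever a member passed. Compared with GS, 7 of 38 members were higher and 0 lower (3.56% and 1.51% of all tested genes): Mcm6, Rrm1, Rfc1, Rfc4, Rrm2, Mcm4 and Orc2. Without the members tested only through GBS arrays, 6 of 35 were higher. Mcm6 led with 2.05 (adjusted p 0.000845), followed by Rrm1 with 1.14 (0.00865), Rfc1 with 0.68 (0.0143) and Rfc4 with 0.81 (0.0223). Compared with GB, 15 were higher and 0 lower (9.6% and 3.12% of all tested genes), again led by Mcm6 with 2.29 (adjusted p 0.000543), Rrm1 with 1.41 (0.00238), Rfc1 with 0.79 (0.00522) and Rfc4 with 1.0 (0.0066), and without those members 13 of 35 were higher. The comparisons share the GBS arrays and are not independent. Gins4, Orc5, Pcna, Pola1, Pold3, Pole, Prim1 and Tyms passed against Control and GB but not against GS, and Rfc2 passed against Control alone. Whether their differences from GS and from Control were unequal is the comparison of GS with Control, in which 0 of 38 members passed.

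These counts moved with the arrays used. The number higher than in GS was 3 without GBS replicate 1, 2 without GBS replicate 2, 3 without any 1 of the GS arrays, 4 without Control replicate 3 and 12 without GB replicate 2, while Mcm6 and Rrm1 passed in every setting. Orc2, with a limma adjusted p of 0.0473 against GS, lost that call in 15 of 23 other settings at the same threshold. Rrm2 lost it in 10 of 23, Mcm4 in 8 of 23, Rfc4 in 6 of 22 and Rfc1 in 1 of 23. The number higher than in GB was 8 without GBS replicate 2, and when the GBS and GB arrays were fitted alone only Mcm6 remained. For these settings too, shares of all tested genes are not given. Of the 15 calls against GB, those of Orc5 and Gins4 were lost without GB replicate 2. The comparison of GBS with each other genotype is drawn in the plot of differences.

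**Figure D4:**
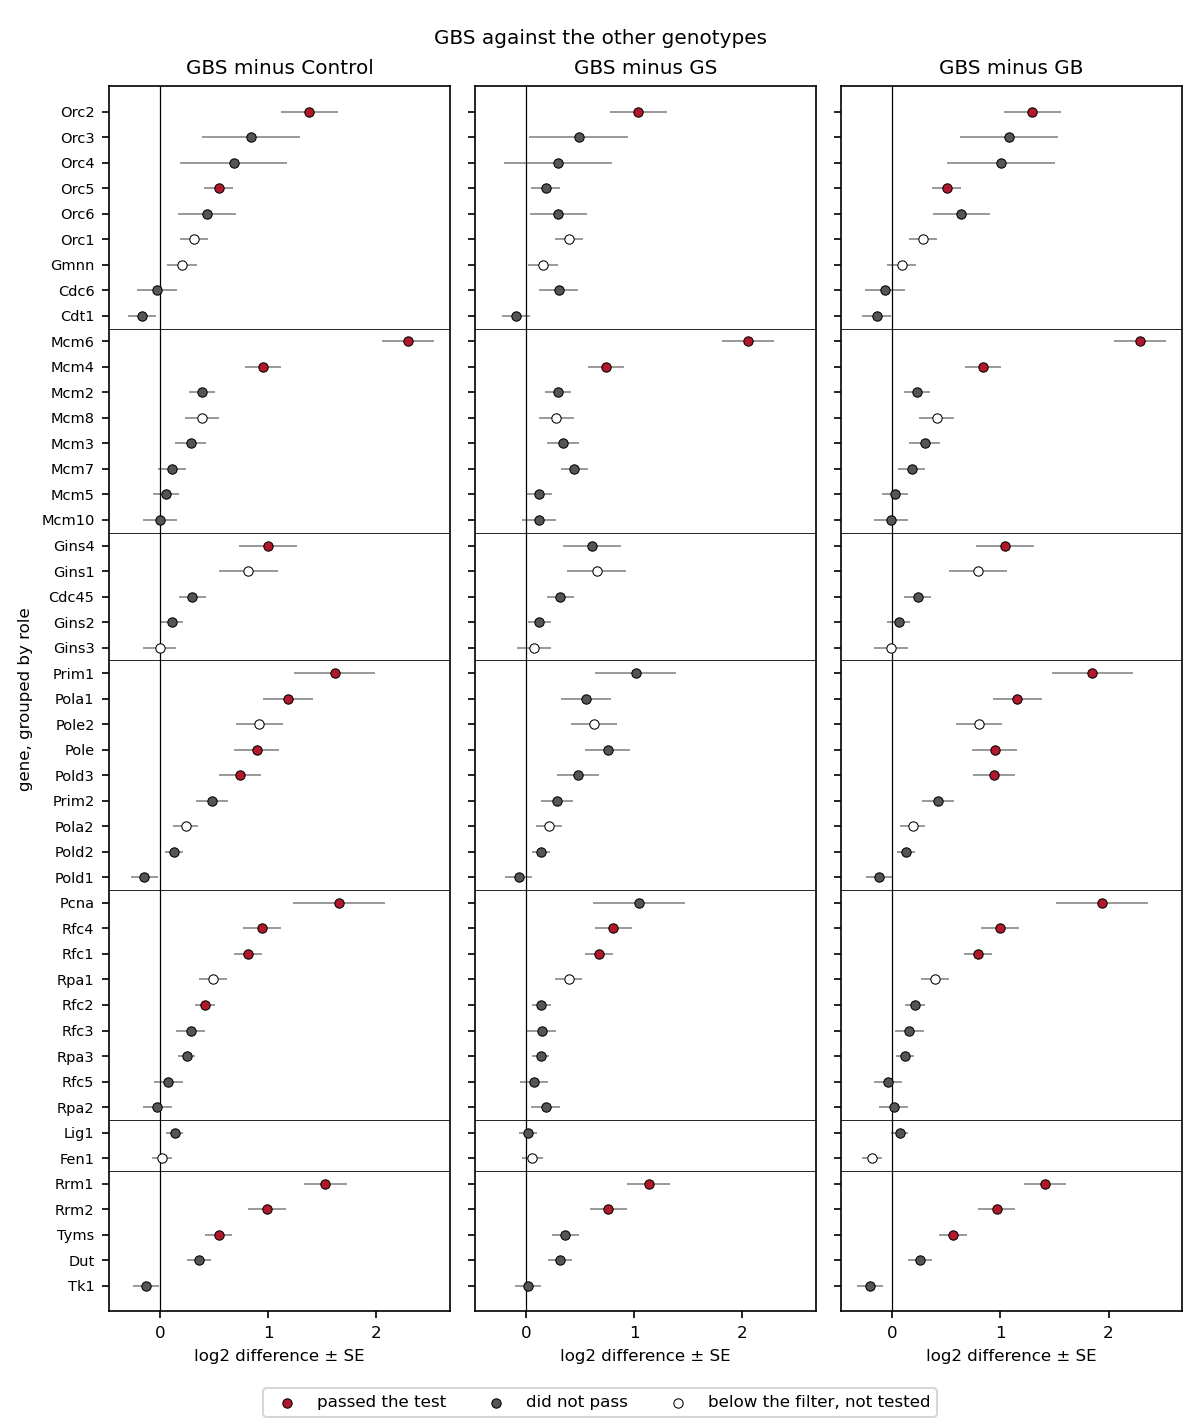
Each row is a gene, ordered within its role by the difference between GBS and Control. The horizontal axis gives the log2 difference with its standard error, for GBS minus Control, GBS minus GS and GBS minus GB. Red points passed the test, dark grey points did not, and open points are below the filter. Mcm6 lies farthest right in each panel, and Cdt1, Pold1 and Tk1 lie left of 0 in the first panel.

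The joint effect of the alleles was compared as the difference between GBS and GS minus the difference between GB and Control. Mcm6 was the only member that passed, at 2.05 ± 0.34 (SE; 95% interval 1.30 to 2.80; adjusted p 0.0303), where 0.324% of all tested genes were higher and 0.00704% were lower. The call was lost without GBS replicate 1, without any 1 of the GS or Control arrays, and without GB replicate 1 or 3, and its adjusted p reached 0.116 over the settings. Rrm1 stood at 1.02 (adjusted p 0.265), Rfc4 at 0.86 (0.273) and Rfc1 at 0.66 (0.273). The median over the 38 tested members was 0.31, against -0.03 over all tested genes, and 12 members had an unadjusted p under 0.05, as did 8.16% of all tested genes. The 38 include Mcm3, Pole and Rfc4, tested only through their GBS arrays, and the 12 include Pole and Rfc4. Without the members tested only through GBS arrays, 1 of 35 passed.

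GBS had the highest mean in 38 of 47 members (80.9%), against 26.2% of all 19938 genes. GBS came first and GS second in 26 members (55.3%), against 19.4% of all genes. The member median by array was 6.96, 7.25 and 6.89 in GBS tumors, 6.75, 6.68 and 6.71 in GS, 6.63, 6.55 and 6.63 in GB, and 6.64, 6.68 and 6.62 in Control. The GBS arrays were apart from the rest, and the other groups lay within a narrow band in which GS overlapped Control. Neither the differences between GS and GB nor the order of the means was tested.

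**Figure D5:**
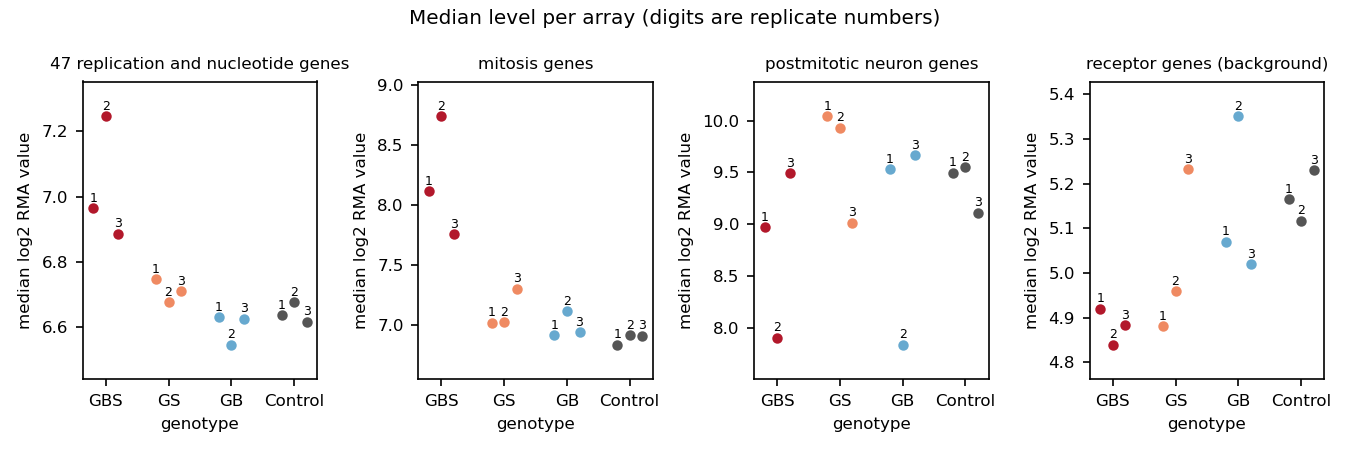
Each panel plots the median log2 RMA value of a gene list in each array by genotype, with digits for replicate numbers and a vertical axis of its own that does not start at 0. In the panel of the 47 members the GBS arrays lie at 6.96, 7.25 and 6.89, above the 9 other arrays; the other panels show mitosis, neuronal and olfactory and vomeronasal receptor genes, and GBS replicate 2 is highest for mitosis and lowest of the GBS arrays for neuronal genes.

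Within the tumors, most members shared an order of the GBS replicates. The members were chosen with earlier results of these data known. GBS replicate 2 was the highest GBS array in 37 of 47 members (78.7%), against 36.1% of tested genes, and GBS replicate 3 was the lowest in 37 (78.7%), against 27.1%. Both held in 29 members (61.7%), against 15.2% of tested genes. The 47 members include 9 below the filter, whereas the tested genes all passed it, so these sets are unlike. Among the members higher in GBS than in Control, replicate 2 was highest and replicate 3 lowest in 14 of 16 (87.5%), against 35.9% of the 1556 genes higher there. The 14 include Pole and Rfc4, which were tested only through their GBS arrays. Taken alone, GBS replicate 2 was highest in 15 of these 16 members (93.8%) and in 88.4% of those 1556 genes, which is a similar share. GBS replicate 3 was lowest in 14 (87.5%) and in 37%. The median difference between GBS replicates 2 and 3 was 0.42 over the 47 members and -0.01 over tested genes. Markers of mitosis had the same order in 9 of 11 genes (81.8%).

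Cell type markers moved beside these genes. For mitosis genes, 7 of 11 tested were higher in GBS than in Control and 0 lower, and their summed level (log2) ran from 11.32 to 12.18 in GBS tumors, 10.47 to 10.89 in GS, 10.33 to 10.36 in GB and 10.24 to 10.27 in Control. For radial glia and progenitor genes, 5 of 9 were higher and 1 was lower, and the summed level was 11.64 to 11.80 in GBS tumors and 11.51 to 11.73 in Control. For neuronal genes, 0 of 11 were higher and 2 were lower, with 11.95 to 12.75 in GBS tumors and 12.71 to 13.10 in Control, and GBS replicate 2 had the lowest GBS median (7.91). The sum for meninges and fibroblast genes was 11.09 to 11.14 in GBS tumors and 9.60 to 9.75 in Control, where 1 of 4 tested genes, Dcn, was higher, by 3.79. Col1a1, Col1a2 and Col3a1 did not pass, with differences of -0.19, -0.23 and -0.24 and GBS arrays below all Control arrays. For oligodendrocyte lineage genes, 0 of 6 were higher and 2 were lower, all 6 had GBS arrays below the Control arrays, and the sums were 9.15 to 9.35 in GBS tumors and 9.67 to 9.74 in Control. For microglia and macrophage genes, 0 of 6 passed in either direction (5 had GBS arrays below the Control arrays, and 3 had an unadjusted p under 0.05). Their sums were 9.45 to 9.57 in GBS tumors and 9.73 to 9.82 in Control. By comparison, GBS arrays lay below all Control arrays in 5071 of 14195 tested genes. They did so in 178 of 208 tested olfactory and vomeronasal receptor genes. For astrocyte genes, 1 of 5 was higher and 1 was lower, with sums of 9.36 to 9.45 in GBS tumors and 9.14 to 9.23 in Control. The median of the astrocyte list went the other way, at 6.00 to 6.11 in GBS tumors and 6.41 to 6.46 in Control. Endothelial (7 tested) and erythroid (2 tested) lists had 0 members that passed, and at an unadjusted p under 0.05 they had 3 and 1. At that level, 2854 of 14195 tested genes were higher and 2657 were lower. The part of these cell types in the result was not tested.

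Other genes of the pathway were counted by lists chosen with earlier results known. Of other replication factors, 14 of 27 tested were higher in GBS than in Control and 0 lower, with a median of 0.49. Top2a, which untangles replicated DNA, had 9.83, 10.33 and 9.41 in GBS tumors, 8.58, 8.16 and 8.71 in GS, 7.63, 6.59 and 7.56 in GB, and 7.12, 7.46 and 7.07 in Control. GBS arrays were highest and GS arrays came next, with no overlap between GS and Control. The difference between GBS and Control was 2.64 (adjusted p 0.000389). Dbf4, the activator of the CDC7 kinase, was higher by 1.36 (adjusted p 0.00335). Ticrr, which helps to recruit CDC45, was higher by 1.20 (adjusted p 0.00331), and Cdc25a, a phosphatase that activates cyclin-dependent kinases, by 0.66 (adjusted p 0.00546).

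In replication-coupled chromatin assembly, 3 of 8 tested genes were higher and 0 lower, with a median of 0.74. Hells, a chromatin remodeller, had 8.03, 9.05 and 7.62 in GBS tumors, 6.57, 6.20 and 6.45 in GS, 6.29, 5.34 and 5.93 in GB, and 5.82, 6.00 and 5.93 in Control. GBS arrays were the highest, and GS arrays also lay above Control without overlap. GBS exceeded Control by 2.32 (adjusted p 0.00148). Mms22l, which acts at stalled forks, was higher by 0.91 (adjusted p 0.0103), and Nasp, a histone chaperone, by 1.62 (adjusted p 0.0329). The call for Nasp was lost without GBS replicate 1 or 2 or any Control array, with an adjusted p of up to 0.408 over the settings. It was also lost with quantile normalization, the replicate block and the receptor-gene level as a covariate.

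Of 24 tested genes of other nucleotide synthesis, 4 were higher and 0 lower, with a median of 0.23. Ppat, which commits to purine synthesis, was higher by 0.83 (adjusted p 0.00939), Paics of the same pathway by 0.82 (0.0126), Dtymk, thymidylate kinase, by 0.64 (0.00986) and Dck, deoxycytidine kinase, by 0.38 (0.0343). Dtymk (adjusted p 0.0724), Ppat, Paics and Dck were lost with the receptor-gene level as a covariate. Ppat was also lost without GBS replicate 2 (adjusted p up to 0.0719 over the settings). Paics was also lost with a trend and robust prior, and without GBS replicate 2 or Control replicate 3 (up to 0.110). Dck was also lost with the replicate block, and without GBS replicate 1 or 2, GS replicate 2 or any Control array (up to 0.127).

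Among E2F and RB regulators, 5 of 14 tested were higher and 0 lower, with a median of 0.41. Tfdp2, a dimer partner of E2F factors, had 8.05, 8.36 and 8.49 in GBS tumors, 7.46, 7.31 and 7.32 in GS, 7.25, 6.89 and 7.34 in GB, and 7.02, 6.96 and 6.83 in Control. GBS was the highest group without overlap, by 1.37 over Control (adjusted p 0.000236). Rbl1, a relative of the retinoblastoma protein, was higher by 1.20 (adjusted p 0.00158), E2f8, a repressor of the family, by 0.89 (adjusted p 0.00437), and E2f5 by 1.08 (adjusted p 0.00497). The share that passed in each of these lists can be read against the 11% of tested genes that were higher.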

How the data were processed

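RNA of 12 forebrain samples was measured on Affymetrix Mouse Gene 1.0 ST arrays, 3 for each of 4 genotypes. The deposited table holds log2 values, which the submitters' processing notes credit to RMA and Affymetrix Expression Console. As commonly run, RMA subtracts background, quantile-normalizes and combines the probes of a probe set. Software versions, the probe set library and the genome build were not given in the sources used here. That the scale is log2 was inferred from the range of the values, 2.82 to 13.83. No further normalization was applied.

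Of 35556 probe sets, 21789 had 1 gene symbol, updated through gene identifiers to RefSeq for GRCm38.p6 (names only). The probe set with the highest mean was kept for each of 19938 genes, and genes were tested if at least 3 of 12 arrays exceeded their 40th percentile. In R 4.3.3, limma 3.58.1 fitted a model with 1 mean for each genotype over the 12 arrays (lmFit, then eBayes), leaving 8 residual and 2.9 prior degrees of freedom, and 6 contrasts were adjusted by Benjamini-Hochberg over 14195 genes each. No signal of background probes was used, so the number of arrays limits the precision. The script was tested on simulated data.

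The members, the gene lists and the tests were chosen with earlier results of these data known. Values by array are given for the 12 members with the lowest adjusted p between GBS and Control, any member that passed in GS or GB against Control or in the joint contrast, up to 4 with the lowest adjusted p against GS and against GB, up to 4 with negative differences, and Pcna, Gmnn and Cdt1. Of each pathway list, up to 4 genes with the lowest adjusted p are named. Other members and sequences were named after their values were seen. Same-numbered replicates were checked for pairing: 7 of 18 pairs had a correlation of deviations over 0.1 (range -0.82 to 0.74), so the numbers were not taken to pair samples.

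The alternatives were no filter and a 60th-percentile filter, probe sets averaged, array centring, quantile normalization, array weights, limma with a trend and robust prior, only the groups compared, a replicate block, a threshold of 0.01 and each array left out. Leaving out the 3 deviating arrays and adding the receptor-gene level as a covariate were chosen after seeing the data.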

Additional observations from a re-analysis of the deposited data

Results flagged for a closer look

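Mcm6 differed between the settings of the alleles. The gap between GBS and GS exceeded the gap between GB and Control by 2.05 on the log2 scale, in a test of that difference itself (limma, adjusted p 0.0303). The call was lost in 11 of 22 alternative settings, 9 of the 12 that leave out a single array among them, with an adjusted p of up to 0.116. All 3 GBS arrays were above all 9 others for this gene.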

How the results depend on the processing

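All 39 calls of members over the comparisons kept their direction in every setting in which they could be fitted, of 22 planned and 2 added after seeing the data. At an adjusted p under 0.01, 8 members were higher in GBS than in Control, 2 than in GS and 5 than in GB, and 0 passed in the joint contrast. A filter at the 60th percentile gave medians of 0.61 against Control, 0.72 against GB and 0.53 in the joint contrast. That filter also lets a gene pass through its GBS arrays alone, so GBS levels can help to choose the members behind these medians. With array weights, 12 members were higher and 3 lower in GS than in Control, 17 were higher in GBS than in GS, 6 passed in the joint contrast, and the median for GB against Control was 0.079. With the replicate numbers as a block, 3 members were higher in GBS than in GS and 0 passed in the joint contrast, and Gins4, Pold3 and Pcna lost their calls against Control, as they did with quantile normalization. Centring the arrays left 0 in the joint contrast. Fitting only the groups compared left 1 member higher in GBS than in GB. Without the 3 arrays that deviate together, 2 were higher in GS than in Control and 16 in GBS than in GS. With the receptor-gene level as a covariate, 14 were higher in GBS than in GS and 8 than in GB. Leaving out 1 array in turn gave 8 to 23 members higher than in Control, 2 to 12 than in GS and 8 to 17 than in GB. It gave 0 to 1 in the joint contrast, and medians for GB against Control of 0.00787 to 0.0711. Shares over all tested genes are not given for these settings.

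The small differences from Control that turned sign did so as follows. With the receptor-gene level as a covariate they were 0.15 for Cdt1, 0.14 for Pold1, 0.074 for Tk1 and 0.18 for Rpa2. Rpa2 was also at 0.049 with centred arrays, between -0.11 and 0.028 with 1 array left out in turn, above 0 without GBS replicate 1 (0.028), GBS replicate 3 (0.011) or Control replicate 3 (0.0099), and at 0.0099 without the 3 arrays. The cause was not tested.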
